A study of Mus musculus with 6 samples.

Results

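The genes described here are 31 cytosolic and mitochondrial heat shock chaperones, their co-chaperones and 2 heat shock transcription factors, taken as a fixed list of symbols and matched by Entrez identifier among the 24454 genes of the deposited table. All 31 had a row, and all 31 passed the filter on low values (1 CPM or more in 2 or more libraries, where CPM scales the counts to a common library size), along with 11493 other genes. RNA was sequenced from Py2T, a mouse cell line grown from a mammary tumour, in 6 libraries. The C40 line had been given 40 µM H2O2 daily for 4 months, the I60 line 60 µM, and the PBS cells no H2O2 (0 µM), with 2 libraries in each group. Whether the 2 libraries of a group came from cultures kept apart over the 4 months is not stated. A change from H2O2 and a change that arose while the cells were passaged therefore cannot be told apart. Each pair of libraries is described as biological duplicates, and p-values measure the spread within pairs.

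Heat shock proteins bind unfolded or misfolded proteins and help them fold, hold them soluble or pass them on for breakdown. HSP70 proteins work in cycles driven by J-domain partners and nucleotide exchange factors, HSP90 acts late on kinases and receptors with a set of co-chaperones, and small heat shock proteins hold clients without using ATP. Under heat or oxidant stress the transcription factor HSF1 binds arrays of GAA units, the heat shock elements, and raises many of these genes within hours, while others are made at a steady level in all cells. The comparisons ask whether cells kept on H2O2 for months carried a raised chaperone programme.

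Library totals ran from 48113692 to 60260520 reads, and the member with the fewest reads in a library, Hspa2, still had 113. The libraries carried the epithelial keratin genes Krt8 and Krt18 in all 3 groups. Of 6 epithelial marker genes, 4 were lower in C40 than in PBS and 4 lower in I60, with a summed level of 3529 to 3782 CPM in C40, 3091 to 3154 CPM in I60 and 6777 to 7207 CPM in PBS. Of 10 fibroblast markers, 7 were higher in C40 and 6 in I60, with sums of 266 to 1046 CPM in C40, 637 to 649 CPM in I60 and 6.22 to 7.33 CPM in PBS, while Lum, Fap and Thy1 were at 0 everywhere. Between the lines, 4 epithelial markers were lower in I60 than in C40. The 5 immune markers summed to 16.3 and 28.1 CPM in I60, 4.34 and 3.62 CPM in C40, and 4.78 and 5.11 CPM in PBS, with Cd3e at 0 everywhere, and the 1 that was tested was higher in I60 than in either other group. Endothelial, adipocyte and muscle markers summed to at most 1.19 CPM in a library. These markers moved with the groups in which chaperones changed, the immune ones with I60 as Hspb1 did, and their part in the chaperone values was not tested, and in bulk RNA fewer cells of a type and less RNA per cell cannot be told apart.

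Most chaperone genes did not pass the test in either line. In C40 against PBS, 0 of 31 were higher and 1 was lower, which is 3.23% of the members, where limma called 20.2% of the 11524 genes tested (adjusted p below 0.05; 11.2% higher and 9.02% lower). In I60 against PBS, 2 were higher and 2 lower, 12.9% of the members, against 27.1% of all genes tested (13.9% higher and 13.1% lower). In I60 against C40, 1 was higher and 0 lower, again 3.23%, against 9.23% of all genes (3.51% higher and 5.73% lower). At an unadjusted p below 0.05 the counts were 7, 8 and 4 members, for which no count over all genes was made. The share of all genes at that cut was at least the 20.2%, 27.1% and 9.23% called. An adjusted p is never below its unadjusted p. DESeq2 called 1 member higher and 4 lower in C40, 3 and 2 in I60, and 3 and 1 between the lines. It also called more of all genes than limma did, with 3322 against 2333 in C40, 3857 against 3122 in I60, and 1669 against 1064 between the lines.

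Without regard to sign, the sizes were below those of all genes in I60 against PBS and near them in the other comparisons. The median log2 fold change of the members was -0.27 in C40 against PBS (all genes tested, -0.02), 0.07 in I60 against PBS (all genes, -0.00) and 0.26 in I60 against C40 (all genes, 0.02). The unsigned median was 0.36 in C40 (all genes, 0.41), 0.20 in I60 (all genes, 0.44) and 0.26 between the lines (all genes, 0.28). The 95% interval lay within a 2-fold change in both directions for 16 of 31 members in C40 (51.6%, against 50.1% of all genes). It did so for 19 in I60 (61.3%, against 47% of all genes) and for 19 between the lines (61.3%, against 60.9%). Libraries of C40 and PBS did not overlap for 17 members (54.8%; 62.7% of all genes), 5 of them higher in C40 (30.9% of all genes) and 12 lower (31.8%). Those of I60 and PBS did not overlap for 18 (58.1%; 70.6% of all genes), 10 higher (35.5%) and 8 lower (35.2%), and those of I60 and C40 for 14 (45.2%; 48.8% of all genes), 11 higher (24.4%) and 3 lower (24.4%).

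**Figure D1:**
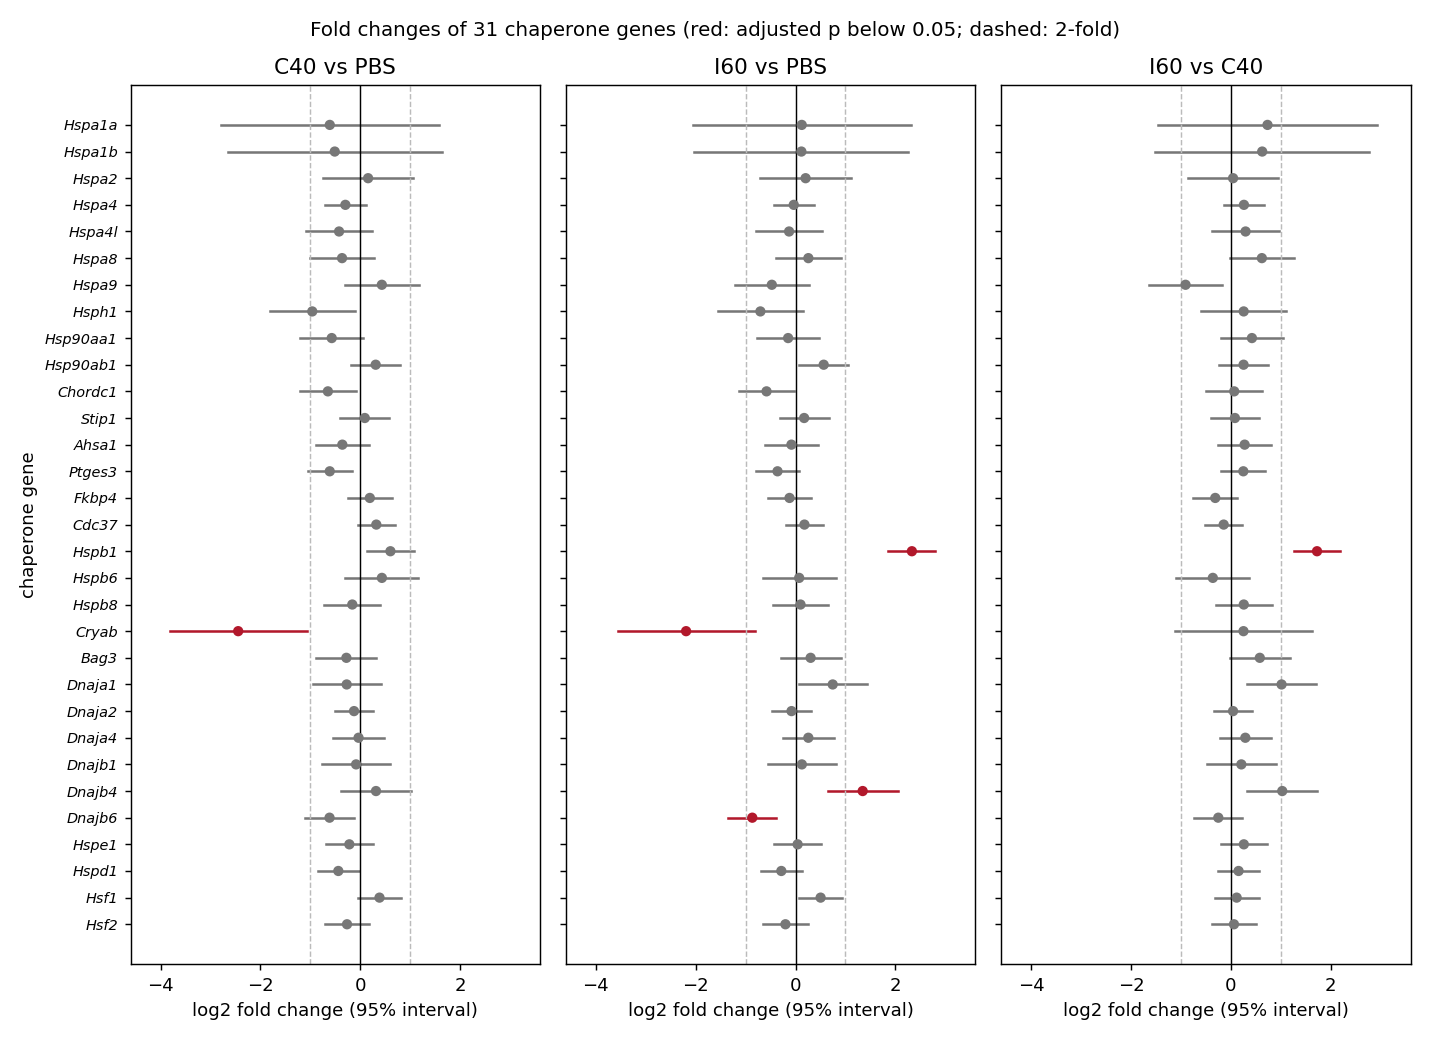
Log2 fold changes (x axis) of the 31 chaperone genes (y axis) in C40 against PBS, I60 against PBS and I60 against C40, as points with 95% intervals from limma on log2(CPM + 0.5). Red marks an adjusted p below 0.05, which 1, 4 and 1 genes reached, and the intervals of Hspa1a and Hspa1b are wide because their replicate libraries differed.

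The small heat shock proteins held the largest changes in either direction, and they went opposite ways. Hspb1 encodes the actin-protecting HSP25, the mouse form of human HSP27 (mm10 chromosome 5, 135887919 to 135889563). Its libraries stood at 20.8 and 19.6 CPM in C40, 74.1 and 62.6 CPM in I60, and 12.9 and 13.4 CPM in PBS. The groups did not overlap, and both I60 libraries stood far above every other library. Hspb1 rose 5.03-fold in I60 against PBS (log2 fold change 2.33, SE 0.20, limma adjusted p = 0.000215), with a mean of 68.4 ± 8.14 CPM in I60 and 13.2 ± 0.313 CPM in PBS (SD, n = 2 each). The 1.52-fold difference of C40 from PBS did not pass with limma (adjusted p = 0.0743) and passed with DESeq2 (adjusted p = 0.0216). I60 was 3.31-fold above C40 (95% interval 2.39 to 4.58, limma adjusted p = 0.00229), and this contrast tests the difference between the lines' effects.

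The call for Hspb1 in I60 held with any 1 library left out (limma adjusted p from 5.63e-05 to 0.00565). Of 18 other genes tested within 500 kb of Hspb1, 6 were higher and 1 lower in I60 than in PBS (13.9% and 13.1% of all genes). Their log2 fold changes ran from -2.04 to 1.34 (median 0.25), all below that of Hspb1. Whether the stretch changed as a whole was not tested. By sequence, 46.2% of the 81-base windows of the Hspb1 transcript (the read length) occur exactly in another annotated gene, among them the pseudogene Hsp25-ps1.

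The 250 bases before its RefSeq start site (GRCm38.p6, plus strand, chr5:135887669-135887918) are shown because Hspb1 is the member with the most certain rise, with the GAA and TTC units of paired heat shock element half-sites in capitals. The motifs searched were GAANNTTC and TTCNNGAA, each its own reverse complement, so that both strands were covered, and adjoining matches may share a unit. Hspb1 has 2 matches, starting 117 and 97 bases before the start site.
Hspb1: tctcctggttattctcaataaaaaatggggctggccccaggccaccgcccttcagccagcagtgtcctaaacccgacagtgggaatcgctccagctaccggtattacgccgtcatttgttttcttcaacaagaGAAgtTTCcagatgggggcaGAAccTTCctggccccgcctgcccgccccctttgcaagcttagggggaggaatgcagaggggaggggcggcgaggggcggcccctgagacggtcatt

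At least 1 match to either motif was found for 13 of the 25 members with a row in the promoter table. This compares with 14.5% of the 27025 genes in that table and 12.8% of its 32851 promoters. The other 6 members, Hsp90ab1, Hsp90aa1, Hspa8, Hspa9, Cryab and Hsf1, had no row in it and were not searched. GAANNTTC alone occurred in 6.69% of all promoters and TTCNNGAA in 7.17%. A match describes the letters only, and binding was not measured.

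Cryab encodes αB-crystallin, a small heat shock protein that binds desmin and actin filaments (chromosome 9, 50745951 to 50756636). It stood at 31.7 and 8.35 CPM in C40, 26.3 and 14.6 CPM in I60, and 101 and 83.3 CPM in PBS. Every treated library was below both PBS libraries, while the C40 libraries differed 3.64-fold from each other. Cryab fell 5.45-fold for C40 (log2 fold change -2.45, SE 0.58, limma adjusted p = 0.0263) and 4.57-fold for I60 (-2.19, SE 0.58, limma adjusted p = 0.0308). The C40 value moved most with its own libraries, to -3.38 without C40 replicate 1 and -1.52 without C40 replicate 2. Both calls depended on single libraries: leaving out PBS replicate 1 gave an adjusted p of 0.155 in C40 and 0.159 in I60, and leaving out PBS replicate 2 gave 0.0948 and 0.101, while the C40 log2 fold change stayed at -2.31 and -2.58. In I60 it was 0.0788 when I60 replicate 1 was dropped and 0.19 when replicate 2 was. In C40 the call was also lost without either I60 library (0.0536 and 0.0527), which enter through the shared spread, and with no filter on low values it was lost in both lines (0.0677 in C40 and 0.0745 in I60). I60 and C40 did not differ in it beyond their spread (log2 fold change 0.25, 95% interval -1.12 to 1.63), and the difference was -0.68 without C40 replicate 2.

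Of 15 genes tested within 500 kb of Cryab, 1 was higher and 1 lower in C40 (11.2% and 9.02% of all genes). In I60, 2 of these neighbours of Cryab were higher and 4 lower (13.9% and 13.1% of all genes). Hspb2, which overlaps it in the annotation and is another small heat shock protein gene, stayed at or under 0.548 CPM in each library and was not tested.

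The other small heat shock protein genes and Bag3 did not pass in any comparison. Hspb6 (HSP20) had 26.4 and 15.0 CPM in C40, 17.2 and 13.9 CPM in I60, and 13.7 and 15.7 CPM in PBS, with all 3 groups overlapping. Hspb8, which works with the co-chaperone Bag3 to send aggregating proteins to autophagy, ranged from 63.6 to 106 CPM over all libraries, and Bag3 from 58.1 to 126 CPM. Their log2 fold changes against PBS lay between -0.28 and 0.43.

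**Figure D2:**
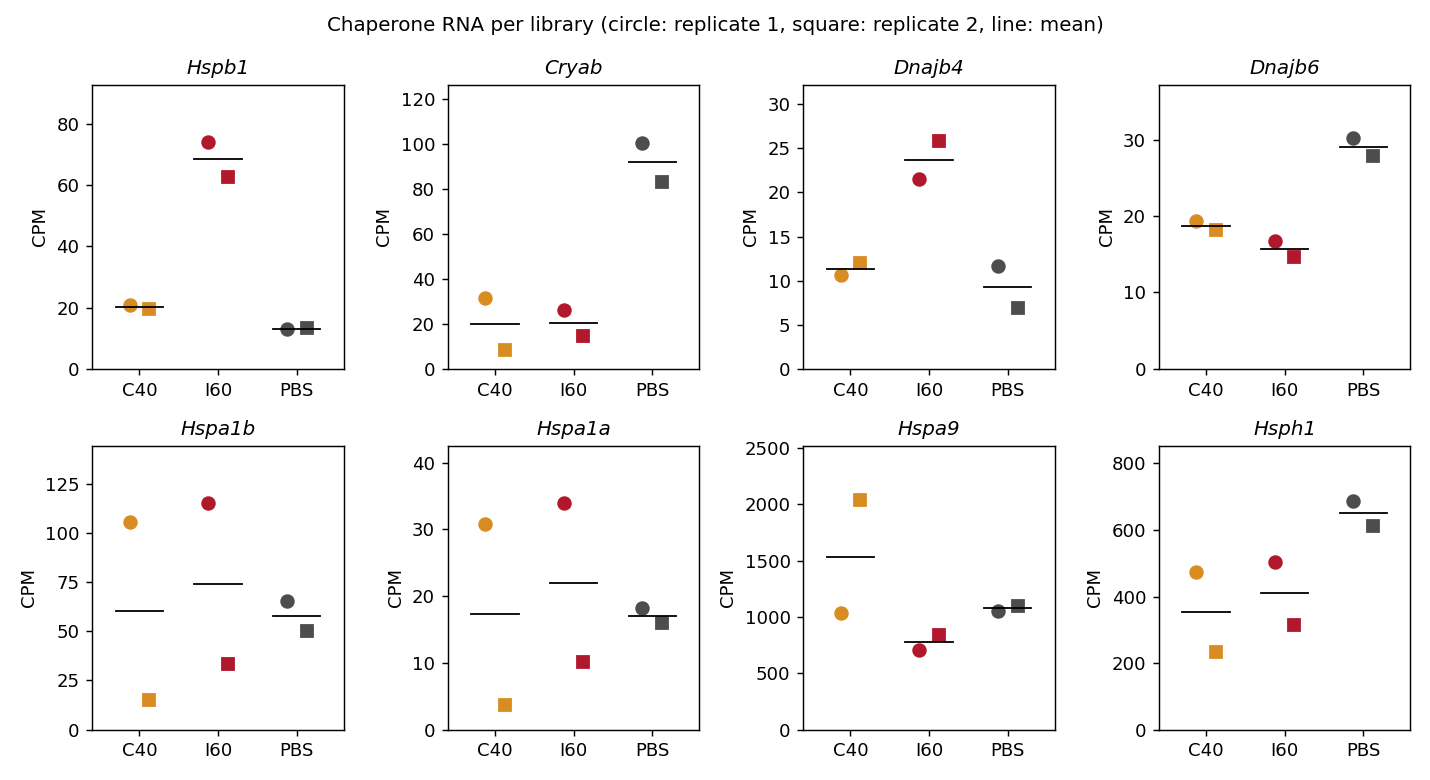
CPM (y axes, from 0) of 8 chaperone genes in each library of C40, I60 and PBS (x axes), with circles for replicate 1, squares for replicate 2 and lines for the means of 2. Hspb1 stands at 74.1 and 62.6 CPM in I60 and at most 20.8 CPM elsewhere, Cryab at 101 and 83.3 CPM in PBS and at most 31.7 CPM elsewhere, and the Hspa1a and Hspa1b libraries of a treated line lie far apart.

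Among the 6 J-domain partners of HSP70, which deliver clients and start its ATPase, 1 rose and 1 fell in I60 and none (0) passed in C40. Of all genes, 13.9% rose and 13.1% fell in I60, and 20.2% were called in C40. Dnajb4 (chromosome 3, 152181580 to 152210432) had 10.7 and 12.0 CPM in C40, 21.5 and 25.9 CPM in I60, and 11.7 and 6.89 CPM in PBS. Both I60 libraries were above all the others, and C40 overlapped PBS. It rose 2.54-fold in I60 against PBS (log2 fold change 1.34, SE 0.30, limma adjusted p = 0.0154). Leaving out PBS replicate 2 (0.0926) or either I60 library (0.0664 for replicate 1 and 0.115 for replicate 2) ended the call. The 2.04-fold difference between I60 and C40 did not pass with limma (adjusted p = 0.0852) and passed with DESeq2 (adjusted p = 0.00965). Dnajb4 has 2 RefSeq start sites. The 250 bases before the one inside the gene (minus strand, chr3:152193846-152194095) hold 1 motif match, starting 14 bases before the start site, in capitals, and those before the other hold 0.
Dnajb4: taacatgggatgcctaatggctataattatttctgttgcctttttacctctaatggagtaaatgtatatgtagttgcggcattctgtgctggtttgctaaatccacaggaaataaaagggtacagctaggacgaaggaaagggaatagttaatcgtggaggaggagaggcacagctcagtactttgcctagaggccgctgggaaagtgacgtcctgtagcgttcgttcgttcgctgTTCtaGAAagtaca

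Dnajb6, which holds back the aggregation of polyglutamine proteins (chromosome 5, 29735898 to 29786478), had 19.3 and 18.1 CPM in C40, 16.7 and 14.6 CPM in I60, and 30.2 and 27.8 CPM in PBS. No treated library reached a PBS library, and the I60 libraries were the lowest of the 6. It fell 1.82-fold in I60 (log2 fold change -0.87, SE 0.20, limma adjusted p = 0.0204). That call was lost with any PBS or I60 library left out (0.0716 to 0.148). The 1.53-fold lower level in C40 did not pass with limma (adjusted p = 0.0762) and passed with DESeq2 (adjusted p = 0.0212). Of 7 genes tested within 500 kb of Dnajb6, 3 were lower and 0 higher in I60 than in PBS, with a median log2 fold change of -0.61. Around Dnajb4, 1 of 6 was lower and 0 were higher. Over all genes, 13.1% were lower and 13.9% higher. Of the Dnajb6 transcript, 32.8% of the 81-base windows are shared with other annotated genes.

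Dnaja1, a J-domain partner of cytosolic HSP70, had 24.3 and 17.2 CPM in C40, 43.8 and 40.1 CPM in I60, and 31.3 and 19.6 CPM in PBS. I60 did not overlap the other groups, but the differences from PBS (log2 fold change 0.74, limma adjusted p = 0.102) and from C40 (1.02, limma adjusted p = 0.0824) did not pass. Both passed with the replicate number as a block in the model (limma adjusted p = 0.0436 and 0.0301), though no label ties that number to a batch. The difference from C40 passed with DESeq2 (adjusted p = 0.0112), and that from PBS without C40 replicate 2 (limma adjusted p = 0.0482). Dnajb1, the classical heat-induced J-domain gene, ranged from 47.9 to 87.1 CPM with its 3 groups overlapping. Dnaja2 (211 to 258 CPM) and Dnaja4 (10.3 to 13.6 CPM) had log2 fold changes between -0.13 and 0.26 against PBS.

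The 8 HSP70 and HSP110 genes gave 0 calls in either line, where 20.2% (C40) and 27.1% (I60) of all genes were called. In the heat-inducible pair the libraries of a line differed by more than the groups did. Hspa1b had 106 and 14.9 CPM in C40, 115 and 33.3 CPM in I60, and 65.3 and 50.1 CPM in PBS. Hspa1a, the neighbouring copy, had 30.8 and 3.72 CPM in C40, 34.0 and 10.1 CPM in I60, and 18.2 and 16.0 CPM in PBS. In both lines replicate 1 was above both PBS libraries and replicate 2 below them. The fold between replicates was 6.89 in C40, 3.42 in I60 and 1.30 in PBS for Hspa1b, and 7.43, 3.24 and 1.13 for Hspa1a. The log2 fold changes against PBS were -0.51 in C40 and 0.12 in I60 for Hspa1b, with 95% intervals of -2.66 to 1.63 and -2.03 to 2.26, so neither a rise nor a fall of 2-fold was excluded by them. The C40 value of Hspa1b turned to 0.88 without C40 replicate 2 and that of Hspa1a to 0.83, and in I60 they turned to -0.77 and -0.72 without I60 replicate 1.

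Hspa1a and Hspa1b share 54.4% of the 81-base windows of the Hspa1b transcript with other genes, so their split is uncertain. Summed, the pair had 136 and 18.6 CPM in C40, 149 and 43.4 CPM in I60, and 83.4 and 66.1 CPM in PBS. Their promoters, shown for their likeness and the motif, match at 247 of 250 positions and hold 1 motif match each, starting 104 bases before the start site (minus strand, chr17:34972157-34972406 and chr17:34959239-34959488).
Hspa1a: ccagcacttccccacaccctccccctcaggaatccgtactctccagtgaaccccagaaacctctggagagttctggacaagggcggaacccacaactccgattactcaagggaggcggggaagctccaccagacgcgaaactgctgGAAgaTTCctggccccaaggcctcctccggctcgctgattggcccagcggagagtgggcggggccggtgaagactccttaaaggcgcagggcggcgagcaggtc
Hspa1b: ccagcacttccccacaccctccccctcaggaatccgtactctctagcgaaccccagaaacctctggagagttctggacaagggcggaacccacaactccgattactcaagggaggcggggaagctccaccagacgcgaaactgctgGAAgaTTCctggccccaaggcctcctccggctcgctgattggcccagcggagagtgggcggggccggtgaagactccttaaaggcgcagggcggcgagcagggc

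Hspa8, the constitutive cytosolic HSP70, had 195 and 110 CPM in C40, 225 and 227 CPM in I60, and 209 and 171 CPM in PBS. It passed in no comparison (limma adjusted p = 0.375 for C40, 0.527 for I60 and 0.244 between the lines). Its C40 log2 fold change of -0.37 became 0.043 without C40 replicate 2. As 67.2% of its windows occur in other annotated genes, its level is uncertain. Hspa9, the HSP70 of the mitochondrial matrix, had 1032 and 2033 CPM in C40, 709 and 843 CPM in I60, and 1051 and 1099 CPM in PBS. C40 replicate 1 was just below both PBS libraries and C40 replicate 2 well above them, and I60 lay below both other groups (log2 fold change -0.48 against PBS and -0.91 against C40, limma adjusted p = 0.303 and 0.144). The difference from C40 passed with DESeq2 (adjusted p = 0.0266).

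Hsph1, an HSP110 that exchanges the nucleotide of HSP70, had 473 and 234 CPM in C40, 504 and 315 CPM in I60, and 688 and 613 CPM in PBS. Both lines lay below PBS without overlap, by 0.96 and 0.70 on the log2 scale, and neither difference passed (limma adjusted p = 0.103 and 0.194). With the replicate block the C40 difference passed (limma adjusted p = 0.0207). The I60 difference passed without C40 replicate 1 or 2 (0.0425 and 0.0411). Its relatives Hspa4 (497 to 687 CPM) and Hspa4l (76.8 to 160 CPM) did not pass either, nor did Hspa2, an HSP70 best known from the testis, at 2.08 to 5.13 CPM.

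HSP90 and its co-chaperones gave 0 calls among 8 genes in each comparison. Of all genes, 20.2% were called in C40, 27.1% in I60 and 9.23% between the lines, and 8 genes are too few to compare with these shares. Hsp90ab1, the constitutive HSP90, had 5609 and 4651 CPM in C40, 6274 and 5931 CPM in I60, and 4008 and 4250 CPM in PBS. The groups did not overlap. The log2 fold change was 0.31 for C40, with limma adjusted p = 0.332, and 0.56 for I60 (95% interval 0.07 to 1.06, limma adjusted p = 0.0904), which passed with DESeq2 alone among the 14 alternatives (adjusted p = 0.0174). Hsp90aa1, the inducible HSP90, had 192 and 171 CPM in C40, 245 and 241 CPM in I60, and 359 and 203 CPM in PBS, with C40 below PBS and I60 overlapping it. Its C40 difference of -0.57 did not pass (limma adjusted p = 0.172), but did without PBS replicate 2 (-0.98, 0.0482). Per kilobase of exon, Hsp90ab1 stood at 1710 CPM per kb in C40, 2035 in I60 and 1377 in PBS, and Hsp90aa1 at 46.2, 61.8 and 71.4 CPM per kb, though 51.9% of the windows of Hsp90aa1 are shared with other genes.

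Of the co-chaperones, Chordc1 and Ptges3 lay below PBS in both lines without overlap. Ptges3 (p23, which steadies the closed form of HSP90) had 51.1 and 50.5 CPM in C40, 65.9 and 55.7 CPM in I60, and 85.9 and 70.8 CPM in PBS. Its log2 fold changes were -0.61 and -0.36 (limma adjusted p = 0.0589 and 0.198). That in C40 passed with DESeq2 (adjusted p = 0.0229) and with the replicate block (limma adjusted p = 0.0448). Chordc1 had 38.4 and 39.5 CPM in C40, 43.9 and 38.0 CPM in I60, and 75.4 and 49.9 CPM in PBS, with log2 fold changes of -0.65 and -0.58 (limma adjusted p = 0.0969 and 0.115), of which that in C40 passed with DESeq2 (adjusted p = 0.0438). Stip1, which bridges HSP70 and HSP90, ranged from 472 to 655 CPM, the ATPase activator Ahsa1 from 159 to 264 CPM, the immunophilin Fkbp4 from 364 to 529 CPM and the kinase adaptor Cdc37 from 358 to 486 CPM. Their log2 fold changes against PBS lay between -0.36 and 0.32.

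The mitochondrial chaperonin, a folding chamber of HSP60 (Hspd1) with the lid HSP10 (Hspe1), did not pass in either line. Hspd1 had 420 and 478 CPM in C40, 506 and 492 CPM in I60, and 679 and 545 CPM in PBS, and both lines lay below PBS (log2 fold change -0.44 and -0.29, limma adjusted p = 0.12 and 0.271). Hspe1 had 87.7 and 70.7 CPM in C40, 105 and 84.8 CPM in I60, and 98.2 and 85.8 CPM in PBS, with overlapping groups. The genes lie head to head, and the stretch between a RefSeq start site of each holds 3 overlapping motif matches. Arrays of at least 3 alternating units occurred in 0.466% of all promoters and, among the members searched, before Hspd1, Hspe1 and Dnajb6. The sites before Hspe1 (chr1:55088053-55088082) and Dnajb6 (chr5:29735844-29735873), both on the plus strand, are shown beside each other because they hold the members' arrays, with the units in capitals.
Hspe1: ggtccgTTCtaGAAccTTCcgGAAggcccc
Dnajb6: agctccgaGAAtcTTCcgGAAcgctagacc

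The transcription factors themselves did not pass. Hsf1, the main activator of the heat shock response, had 86.0 and 109 CPM in C40, 114 and 96.8 CPM in I60, and 73.1 and 74.8 CPM in PBS. Every treated library was above both PBS libraries (C40 log2 fold change 0.38, limma adjusted p = 0.187, and I60 log2 fold change 0.50, limma adjusted p = 0.0893). The I60 difference passed without C40 replicate 1 or 2 (0.0406 and 0.0407). Hsf2, which can pair with HSF1, had 25.0 and 24.4 CPM in C40, 24.8 and 27.0 CPM in I60, and 30.9 and 28.8 CPM in PBS, and its differences of -0.27 and -0.20 did not pass (0.354 and 0.471 by limma). HSF1 is controlled mainly as a protein, which was not measured.

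The 2 libraries of a line differed in the chaperones by more than those of PBS. The SD over the members of the log2 difference between replicate 2 and replicate 1 was 0.84 in C40 (0.62 over all genes tested), 0.47 in I60 (0.38) and 0.27 in PBS (0.36). A difference over 2-fold was seen for 5 members in C40 (16.1%; 8.87% of all genes), for 2 in I60 (6.45%; 1.88% of all genes) and for 0 in PBS (1.94% of all genes). Replicate 2 was the lower library in all 3 groups for 11 members (35.5%; 15.9% of all genes), among them Hspa1a, Hspa1b, Hsph1, Cryab and Hsp90aa1, and the higher one in all 3 for 1 member, Hspa9 (17% of all genes).

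The C40 values depended on which C40 library was kept. With C40 replicate 2 as the lone C40 library, log2 fold changes against PBS were -3.38 for Cryab, -2.06 for Hspa1a and -1.90 for Hspa1b. They were -0.78 for Hspa8, -1.47 for Hsph1 and 0.92 for Hspa9. The members named are those that passed in that fit. With C40 replicate 1 as the lone C40 library, values were -1.52 for Cryab, 0.83 for Hspa1a, 0.88 for Hspa1b and 0.043 for Hspa8.

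**Figure D3:**
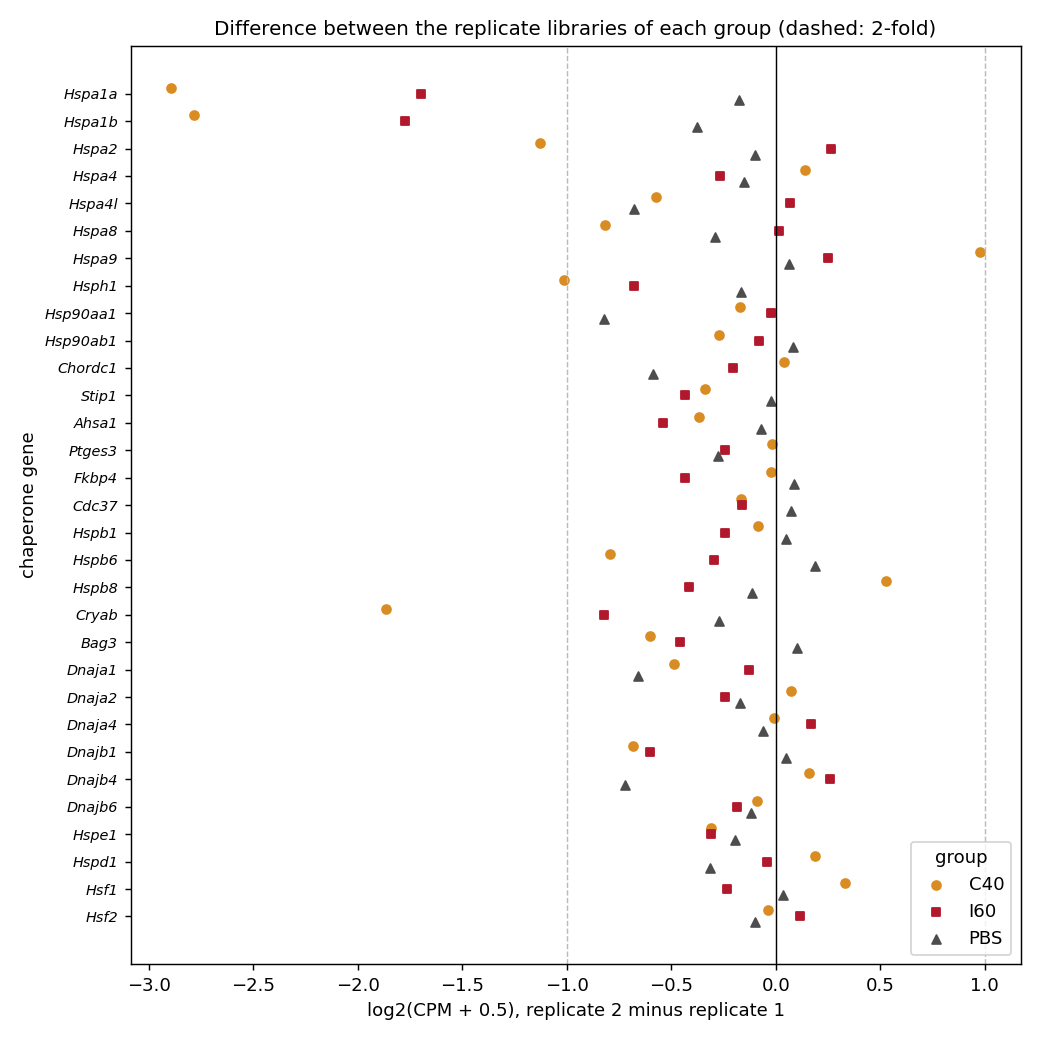
Difference in log2(CPM + 0.5) between replicate 2 and replicate 1 (x axis) for each of the 31 genes (y axis) in C40 (circles), I60 (squares) and PBS (triangles). Hspa1a, Hspa1b and Cryab lie far to the left in C40, Hspa9 lies to the right at 0.98, and all PBS points lie within 2-fold.

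Shared sequence limits how the levels of some members can be read. Over 10% of the 81-base windows occurred in another annotated gene for 11 of the 31, led by Hspa8, Hspa1b, Hspa1a, Hsp90aa1 and Hspb1, while 16 shared none (0%). How reads from such stretches were assigned is not stated. A comparison between groups of 1 gene uses the same windows in each library, whereas levels of different genes do not. Whether reads from a copy that itself differed between groups entered such a comparison was not tested.

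**Figure D4:**
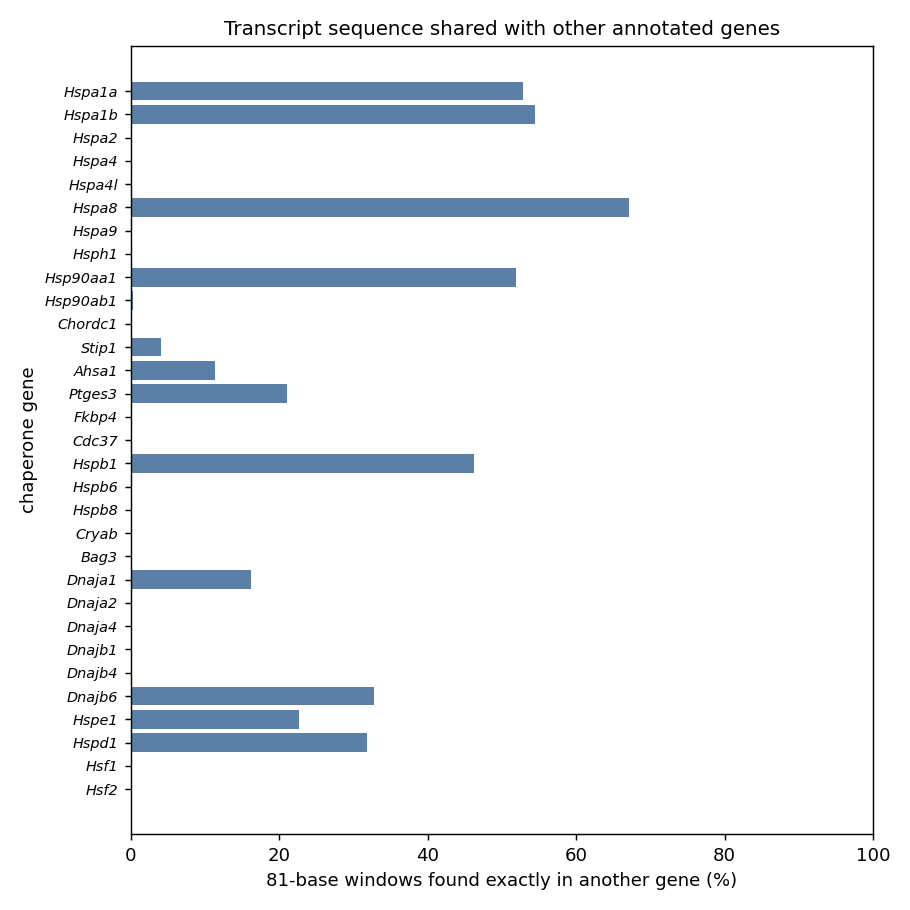
Share of the 81-base windows of each member's longest coding transcript (x axis, percent) that occur exactly in the transcript of another annotated gene that does not overlap it (GENCODE M21), for the 31 genes (y axis). Hspa8 reaches 67.2%, and Hspa1a, Hspa1b, Hsp90aa1 and Hspb1 lie between 46.2% and 54.4%.

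Other genes of protein folding, taken as lists outside the members, held calls in both directions. Of 18 further HSP70 partners tested, 2 were higher and 1 lower in C40, and 4 were higher and 1 lower in I60. Stub1 (CHIP, the ubiquitin ligase that binds HSP70) averaged 173 ± 28.5 CPM in C40, 160 ± 22.1 CPM in I60 and 89.8 ± 2.55 CPM in PBS (SD, n = 2 each), with log2 fold changes of 0.93 and 0.82 (limma adjusted p = 0.014 and 0.0177). Bag5, an exchange factor, had log2 fold changes of 0.89 in both lines (limma adjusted p = 0.0364 and 0.029). Dnajc5, a J-domain protein of secretory vesicles, fell by 0.83 (C40) and 1.23 (I60) on the log2 scale, with limma adjusted p = 0.0113 and 0.00148. Dnajb5 rose by 1.75 in I60, to 15.0 ± 0.403 CPM, against 4.17 ± 1.10 CPM in PBS (limma adjusted p = 0.00317). With some library left out, Stub1 and Bag5 lost their calls in both lines and Dnajc5 its call in C40, with adjusted p up to 0.171.

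Of 13 further HSP90 co-chaperones, 2 were higher and 2 lower in C40, and 2 were higher and 1 lower in I60. In C40, Fkbp5 was higher (log2 fold change 0.69), and Ppid (-0.88) and Tomm34 (-0.67) were lower. Each of these calls was lost with a pseudocount of 2, with no filter and with a filter of 5 CPM. Those of Fkbp5 and Tomm34 were also lost with TMM scaling and edgeR. In I60, Tomm34 was lower (log2 fold change -0.76, limma adjusted p = 0.025) and Ppp5c higher (0.68, limma adjusted p = 0.0386). The Ppp5c call was lost with no filter, and both I60 calls were lost without some library. Ttc4 (chromosome 4, 106656806 to 106679002) had 109 and 85.3 CPM in C40, 568 and 519 CPM in I60, and 49.1 and 43.8 CPM in PBS, log2 fold changes of 1.05 and 3.53 (limma adjusted p = 0.00774 and 2.28e-05). Of 10 genes tested within 500 kb of it, 6 were higher in C40 and 8 in I60 (11.2% and 13.9% of all genes), with a median log2 fold change of 0.98 and 3.29. Hspb11, 1 of 2 tested genes of a list of small heat shock proteins and HSF factors (7 of its 9 genes did not pass the filter on low values), lies on the same chromosome (107253593 to 107284497) and had 7.13 and 8.28 CPM in C40, 36.2 and 59.4 CPM in I60, and 3.36 and 3.05 CPM in PBS. Its log2 fold changes were 1.14 and 3.66 (limma adjusted p = 0.034 and 0.000161). The C40 calls of both genes were lost without some library, up to 0.151, and their I60 calls were kept.

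The cytosolic chaperonin TRiC and prefoldin, 14 genes, had 0 higher and 1 lower in C40 and 2 higher and 2 lower in I60. The 1 lower in C40 was Pfdn4 (log2 fold change -0.84, limma adjusted p = 0.0296). The TRiC subunit gene Cct4 rose by 0.62 on the log2 scale in I60 (limma adjusted p = 0.0389), Pfdn5 rose by 0.68 (0.0223), Pfdn4 fell by 0.77 (0.0324), and Pfdn1 fell to 51.4 ± 3.46 CPM in I60, against 103 ± 3.73 CPM in PBS (SD, n = 2 each, limma adjusted p = 0.00381). Without some library the calls of Cct4, Pfdn4 and Pfdn5 were lost. Of 12 further mitochondrial chaperones and proteases, 2 were higher in each line and 0 lower. Htra2, a protease of the intermembrane space, rose 1.02 in both lines on the log2 scale (by limma, 0.00645 for C40 and 0.00472 for I60), and Clpb, a disaggregase, rose 0.85 and 0.74 (0.0184 and 0.0242). Without some library the Clpb calls were lost in both lines (up to 0.162), and the Htra2 call was lost in C40 without either PBS library (0.0569 and 0.0656).

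Of 14 chaperones of the endoplasmic reticulum, 3 were lower in C40, 2 were lower in I60 and 0 were higher in either. Of all genes, 9.02% were lower in C40 and 13.1% in I60. Sdf2l1, a partner of the reticulum's J-domain proteins, fell by 1.43 (C40) and 1.27 (I60) on the log2 scale, with limma adjusted p = 0.0128 and 0.0155. Hsp90b1, the HSP90 of this compartment, fell by 1.28 in C40 (0.0136), to 428 ± 67.4 CPM, against 1060 ± 341 CPM in PBS and 565 and 667 CPM in the I60 libraries, where it was not called. Without PBS replicate 1 the C40 call of Hsp90b1 was lost (log2 fold change -0.94). The calls of Sdf2l1 were lost without either PBS library, and in I60 also without either I60 library. Dnajb11 had a log2 fold change of -0.84 in C40 (limma adjusted p = 0.0471), a call lost with no filter, with a filter of 5 CPM and with edgeR. Hyou1 had -0.76 in I60 (limma adjusted p = 0.028), a call lost with no filter. Both were also lost with either PBS or either I60 library left out. The shares called in these lists, from 7.14% to 30.8% over both comparisons for lists of 12 or more tested genes, lay on both sides of the 20.2% and 27.1% of all genes.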

How the data were processed

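Total RNA without ribosomal RNA was sequenced as single 81-base reads, per the labels' protocols. STAR and mm10 are named in the submitters' processing notes. Which program counted the reads, against which annotation and with what strand setting, is not stated in those notes. The authors deposited CPM values, and each value was a whole multiple of the smallest step of its library (tolerance 0.01, 100% of values), from which whole reads were recovered for edgeR 4.0.16 and DESeq2 1.42.0. RefSeq GRCm38.p6 gave symbols for 24374 of 24454 identifiers, positions and promoters.

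The test was limma 3.58.1 with an intensity trend on log2(CPM + 0.5), two-sided, in R 4.3.3. All 6 libraries of the 3 groups entered 1 model (3 residual degrees of freedom) over the 11524 genes that reached 1 CPM in 2 or more libraries, with Benjamini-Hochberg adjustment over all of them. Fold changes are on that scale and understate changes of low genes. Recovered reads carry both counting error and the spread between libraries, and the share of each was not measured for the members. The scripts were tested on simulated data.

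Members and lists were chosen with earlier results of these data known. Values in every library are printed for members called in a comparison and for the fixed anchors Hsf1, Hsf2, Hspa1a, Hspa1b, Hspa8, Hsp90aa1, Hsp90ab1, Hspb1, Hspd1 and Hspe1, and of each other list the called genes with the largest changes, at most 4 a comparison. Per-library values of Hspa9, Hsph1, Dnaja1, Hspb6, Chordc1 and Ptges3 were added after they were seen. The alternatives were other pseudocounts, filters, scaling and tools, a replicate block, and each library left out.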

Additional observations from a re-analysis of the deposited data

Results flagged for a closer look

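For Hspb1, Ttc4, Hspb11 and Pfdn1 the effects of both lines against PBS differed, by the test of I60 against C40, which is the difference between those effects. The log2 difference was 1.73 for Hspb1 (higher in 2 of 2 I60 libraries, limma adjusted p = 0.00229), 2.49 for Ttc4 (2 of 2, limma adjusted p = 0.000387), 2.52 for Hspb11 (2 of 2, limma adjusted p = 0.00238) and -0.69 for Pfdn1 (lower in 2 of 2, limma adjusted p = 0.0407). With each library left out in turn, the first 3 kept their calls. That of Pfdn1 was lost in all 6 such fits (0.0535 to 0.242), with TMM scaling (0.0534) and with edgeR (0.0593). Of 10 genes tested within 500 kb of Hspb11, 9 were higher in I60 than in C40 and 1 lower (3.51% and 5.73% of all genes).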

How the results depend on the processing

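Among the members, Hspb1 in I60 against PBS and against C40 kept its call under all 14 alternatives. No called value changed sign. For members, sign changes were sought only in the 13 that were called or fixed as anchors, and not in the others. Among their values that were not called, 21 changed sign, in 12 comparisons of 8 members. In C40 against PBS these were Hspa1a (0.014 with edgeR, 0.012 with DESeq2 and -2.06 to 0.83 with a library left out), Hspa1b (0.066 with edgeR, 0.063 with DESeq2 and -1.90 to 0.88), Hspa8 (-0.78 to 0.043) and Dnajb4 (-0.048 to 0.67). In I60 against PBS, with a library left out, they were Hspa1a (-0.72 to 0.97), Hspa1b (-0.77 to 1.005), Hsp90aa1 (-0.56 to 0.26) and Hspe1 (-0.11 to 0.20). In I60 against C40 they were Hspa1a (-0.71 to 2.18), Hspa1b (-0.76 to 2.02), Cryab (-0.68 to 1.19) and Hsf1 (-0.049 to 0.28). In C40 against PBS, members called higher numbered 0 in the main model, 1 with DESeq2 and 0 to 1 with a library left out. Members called lower numbered 1, with 0 when no filter was used, 4 with DESeq2, 3 with the replicate block and 0 to 5 with a library left out. In I60 against PBS, 2 were higher (3 with the replicate block, 3 with DESeq2, 1 to 4 with a library left out) and 2 lower (1 with no filter, 0 to 3 with a library left out). In I60 against C40, 1 was higher (3 with DESeq2, 2 with the replicate block, 1 to 5 with a library left out) and 0 lower (1 with DESeq2, 0 to 1 with a library left out). Over all genes the calls were 2333 in C40 (829 to 3481 with a library left out), 3122 in I60 (1368 to 4227) and 1064 between the lines (1669 with DESeq2, 336 to 1771). The cause of these differences was not tested, apart from fits with a library fewer having fewer samples.

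The libraries share only a replicate number across groups. Across 11524 genes, the replicate differences correlated with r = 0.154 between C40 and PBS, 0.105 between I60 and PBS and 0.438 between I60 and C40, described over genes of the same libraries. The replicate block added Hsph1 and Ptges3 to the members lower in C40 (limma adjusted p = 0.0207 and 0.0448), and Dnaja1 to those higher in I60 than in PBS (0.0436) and than in C40 (0.0301). Without a filter more low genes were tested. With 2 libraries a group the spread between libraries rests on few values, and a lone library in a left-out fit is assumed to vary like the other groups.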
